A study of Mus musculus with 84 samples.

Results

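Gene expression in 23 Wnt-1 tumors of the mammary gland was set against that in 5 virgin glands of mice without a transgene, so that the whole distance between normal gland and Wnt-1 tumor was read in a single comparison. The members were the samples whose titles name a Wnt tumor or a virgin gland on the larger of the 2 array types, which made 28 of the 84 samples of the series and 28 of the 65 on that array type. In MMTV-Wnt-1 mice the mouse mammary tumor virus (MMTV) enhancer drives the Wnt-1 transgene, and their background was more than 75% FVB, with SJL and C57BL/6 making up the rest. The tumors were taken at 9 to 56 weeks of age. The virgin glands came from nontransgenic FVB mice 9 weeks old, so transgene, strain, age and tumor cannot be told apart in the comparison. For context, 7 hyperplastic glands of MMTV-Wnt-1 mice (9 weeks), 12 tumors of FVB MMTV-Neu mice (32 to 60 weeks), which carry a rat wild-type Neu cDNA under the same viral promoter, and 3 samples of intestinal fat from virgin FVB mice (12 weeks) were read beside them. Each array carried 15360 spotted mouse cDNA clones and was hybridized with sample RNA labeled with Cy5 and a single preparation of reference RNA, pooled from several normal mouse organs, labeled with Cy3. A value is therefore a log2 ratio of sample to reference, and a log2 difference of 1 between groups is a change of 2-fold. The labels do not say whether each array held RNA of its own animal, so the p-values measure the spread between these arrays, which may be partly technical.

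Wnt proteins are secreted glycoproteins that bind Frizzled receptors and LRP coreceptors at the cell surface. In the canonical branch of the pathway this binding stops the destruction complex built on Axin and Apc from marking β-catenin for degradation, and β-catenin then enters the nucleus and switches on genes together with the Tcf and Lef factors. In the mammary gland the pathway is known for its part in ductal branching and in the upkeep of progenitor cells. The virgin gland is a sparse tree of ducts, each with an inner luminal and an outer myoepithelial layer, set in a pad of fat with vessels, fibroblasts, immune cells and, at its border, skeletal muscle. Since whole tissue was hybridized, fewer cells of a type and less RNA per cell cannot be told apart at any gene below.

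Over all clones of an array, log2 ratios had an SD of 0.67 to 1.78 in tumors and 0.81 to 0.86 in virgin glands, with tumor 42 at 1.78 and tumor 49 at 1.36. Each array also held 1 log2 ratio that many clones shared to 4 decimals, which cannot be a measurement of each of them. It stood at 793 clones of tumor 79, at 81 to 237 clones of the other tumors and at 121 to 174 clones of the virgin glands, and the values were kept in the fits. With them set missing, a setting chosen after the data were seen, 3789 clones were higher and 3867 lower in tumors. The genes described here that carry such a value on a tumor array are given with and without it. Genes said to have been chosen or looked at after their values were seen are given only with the values kept. Of the fat samples, number 44 held it at 1094 clones and had an SD of 2.59. Per gene, the SD between arrays had a median of 0.27 in tumors and 0.19 in virgin glands. No clone carried the symbol Wnt1 alone, so the transgene itself was not analysed here, and the same holds for the keratins Krt8, Krt18 and Krt5 and for Acta2, Trp63, Pecam1, Kdr, Csf1r and Acta1. The label of the virgin glands was therefore read from other markers. Of the 5 defining adipocyte genes, Adipoq, Lep, Fabp4 and Pparg were above the reference RNA in all 5 virgin glands and Plin1 was at -0.03 to 0.43. The epithelial genes Krt19 and Cdh1 were higher in all 23 tumors than in any virgin gland. Epithelial genes did not all go that way, since of 14 luminal genes 10 rose and 2, Cldn4 and Tspan8, fell. Krt19 was also low in Neu tumors, at -5.91 to -1.90.

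Gene expression differed widely between the groups. Of 15360 clones tested, 3731 (24.3%) were higher and 3851 (25.1%) lower in Wnt-1 tumors than in virgin glands at a limma adjusted p under 0.05 (Benjamini-Hochberg over all clones). The larger changes were mostly losses, since 210 clones (1.37%) were higher and 760 (4.95%) lower by over 3-fold. That split was 439 higher and 701 lower after quantile normalization of the arrays. Averaged over the clones that carry 1 symbol, 7766 genes were tested, of which 2016 (26%) were higher and 2055 (26.5%) lower, with a median difference of -0.02 over all genes. For 619 genes (7.97%) every tumor lay above every virgin gland, and for 969 genes (12.5%) every tumor lay below every virgin gland. Without the 2 tumor arrays of widest spread, tumors 42 and 49, 3995 clones were higher and 4163 lower. Of the 2822 genes with 2 or more clones, all clones were called in 1 direction for 560, and 284 had clones called in both directions, so a gene-level value may average clones that disagree.

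The 12 genes with the largest rise, among the 3141 genes all of whose clones were called in 1 direction, were Anks1b, Id4, Dcaf12, Ccnd1, Pcbd1, LTO1, Gm11223, Tfap2c, Ccnjl, Wasf1, Crabp2 and Kit. Each of the 12 rests on 1 clone. Anks1b encodes an adaptor protein with ankyrin repeats known mainly from neurons. Its log2 ratio lay between 2.32 and 8.01 (median 4.51) in the 23 tumors, and virgin glands 13, 17, 27, 28 and 29 (the order used below) had 0.45, -0.04, 0.05, -1.28 and -0.31. Every tumor was above every virgin gland, with a difference of 5.16 ± 0.78 SE or 35.7-fold (adjusted p = 2.16e-06), and the tumors themselves were spread over more than 5 log2 units. Id4, an inhibitor of basic helix-loop-helix factors that keeps mammary basal cells undifferentiated, lay between 3.05 and 4.47 (median 3.72) in the 23 tumors. The virgin glands had -0.11, 0.37, -0.02, -0.27 and -0.56, so the groups were far apart and the tumors close together (3.77 ± 0.18 SE, 13.7-fold, adjusted p = 1.69e-16). Ccnd1, the cyclin that drives cells into the cycle and a target of β-catenin, lay between 1.53 and 3.01 (median 2.40) in the 23 tumors, against -1.36, -1.78, -0.66, -0.77 and -0.90 in the virgin glands. The rise was 11.3-fold (3.50 ± 0.18 SE, adjusted p = 1.16e-15).

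RefSeq places LTO1, whose yeast relative is needed to make ribosomes, so that it overlaps Ccnd1, so their clones may not be separate measurements. LTO1 lay between 2.18 and 3.19 (median 2.87) in the 23 tumors and between -0.76 and -0.29 in the 5 virgin glands, a rise of 9.41-fold (adjusted p = 9.94e-18). Other genes beside Ccnd1 on chromosome 7 were looked at after these values were seen. Ano1, a calcium-gated chloride channel, averaged 1.16 ± 0.39 in tumors and 0.18 ± 0.26 in virgin glands (SD, adjusted p = 3.59e-05), and Ppfia1, a liprin of focal adhesions, averaged 0.52 ± 0.26 in tumors and -0.49 ± 0.16 in virgin glands (adjusted p = 3.85e-08). Fadd, an adaptor of death receptors, did not pass the test (0.35 ± 0.17, SE, adjusted p = 0.0975), nor did Fgf15, a secreted fibroblast growth factor (-0.27 ± 0.59, adjusted p = 0.727). The log2 differences were 3.50 and 3.23 at the overlapping pair and at most 1.01 at the measured genes beside it. Fgf3, Fgf4, Tpcn2, Smim38, Mrgprf and Mrgprd, which also lie there, were not measured, so how far the rise extends cannot be read.

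The other leading rises hold regulators of epithelium. Tfap2c, a transcription factor of the luminal lineage, lay between 2.53 and 3.33 (median 3.07) in 22 tumors, against -0.05, 0.59, 0.08, 0.03 and 0.23 in the virgin glands, and tumor 79 held the repeated value of its array, -0.60. With that value left in, the rise was 6.55-fold (adjusted p = 1.5e-07), and with it set missing 7.31-fold (adjusted p = 4.03e-18) with all 22 tumors above every virgin gland. Kit, the receptor of stem cell factor and a marker of luminal progenitors, lay between 1.76 and 3.46 (median 2.78) in the 23 tumors, against -0.37, 0.13, 0.44, 0.10 and 0.29 in the virgin glands (6.22-fold, adjusted p = 3.12e-12). Crabp2, which carries retinoic acid to its nuclear receptor, lay between 1.45 and 3.02 (median 2.21) in the 23 tumors and between -0.53 and -0.12 in the 5 virgin glands (6.31-fold, adjusted p = 8.26e-13). Wasf1, which drives actin branching, and Ccnjl, a protein like the cyclins, rose 6.35-fold and 6.4-fold (adjusted p = 1.37e-10 for both), with all tumors above all virgin glands. Dcaf12, a substrate receptor of a ubiquitin ligase, and Pcbd1, a pterin dehydratase and cofactor of Hnf1, rose 13.3-fold and 9.88-fold but from low ratios, with virgin means of -3.50 and -5.74. Gm11223, a predicted gene, rose 7.28-fold (adjusted p = 8.8e-10).

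**Figure D1:**
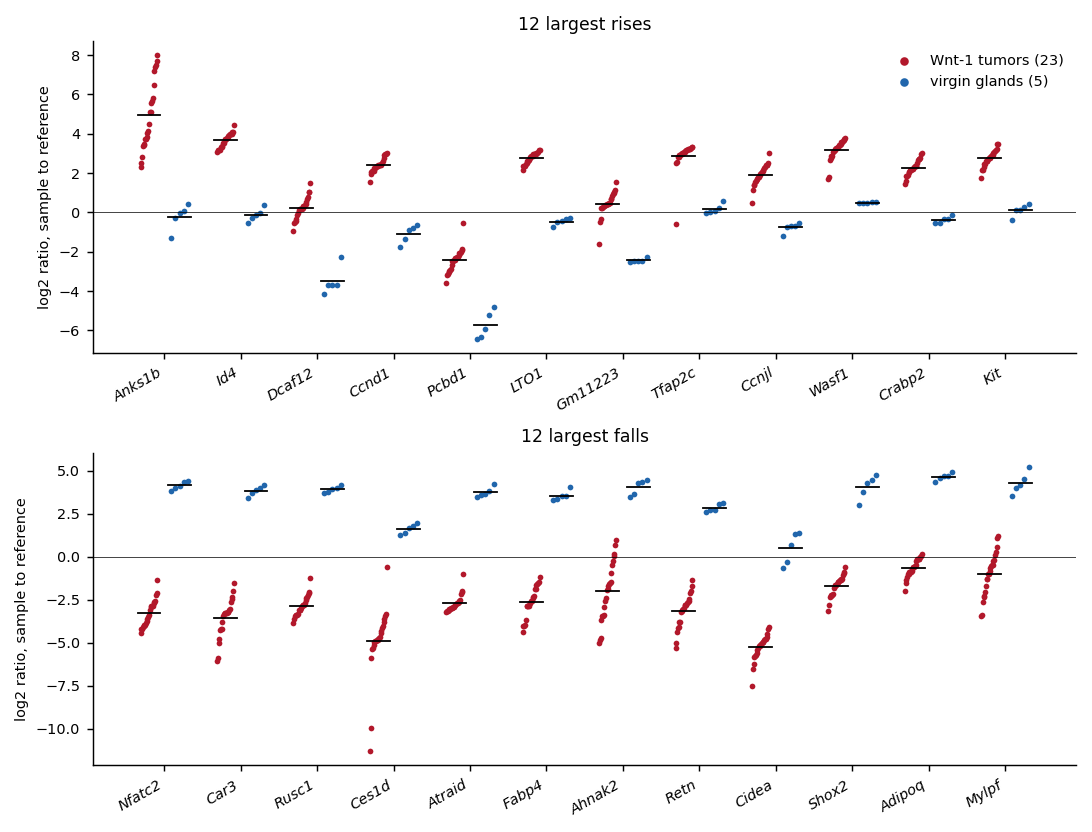
Log2 ratio of sample to reference (vertical axis) on each array for the 12 genes of largest rise (top) and of largest fall (bottom), with Wnt-1 tumors (red, n = 23) left of virgin glands (blue, n = 5) and black lines at the means. The groups overlap for 1 of the 24 genes, Tfap2c, through tumor 79, whose point at -0.60 is the repeated value of that array and no measurement of the gene, as is its Ces1d point at the same height.

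The 12 genes with the largest fall were Nfatc2, Car3, Rusc1, Ces1d, Atraid, Fabp4, Ahnak2, Retn, Cidea, Shox2, Adipoq and Mylpf, and for each of them every tumor lay below every virgin gland. Several are products of the fat cell. Car3, the carbonic anhydrase of fat and slow muscle, lay between -6.08 and -1.53 (median -3.28) in the 23 tumors, against 3.70, 3.43, 3.87, 4.18 and 4.02 in the virgin glands. It was 167-fold lower in tumors (-7.38 ± 0.49 SE, adjusted p = 3.36e-13), and its 2 clones gave -7.36 and -7.41. Fabp4, the fatty acid carrier of adipocytes, lay between -4.34 and -1.15 (median -2.57) in the 23 tumors, against 4.04, 3.52, 3.29, 3.51 and 3.39 in the virgin glands (71.4-fold lower, adjusted p = 1.9e-13). Adipoq, the hormone adiponectin, lay between -2.0 and 0.16 (median -0.59) in the 23 tumors, against 4.38, 4.56, 4.70, 4.96 and 4.69 in the virgin glands (39.4-fold lower, adjusted p = 8.28e-17). Retn, the hormone resistin, and Cidea, a protein of the lipid droplet, were 62.3-fold and 54.7-fold lower. Retn was at 4.29 to 5.02 in the 3 fat samples, but Cidea at -2.90 to -1.20, below all 5 virgin glands (-0.62 to 1.38). Ces1d, a carboxylesterase that hydrolyzes stored triglyceride, was 92.8-fold lower (adjusted p = 6.01e-07), and 106-fold lower with the repeated value of tumor 79 set missing (adjusted p = 9.48e-08).

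Nfatc2, a calcium-regulated transcription factor best known in T cells, had the largest fall of all. Its single clone lay between -4.40 and -1.32 (median -3.39) in the 23 tumors, against 3.84, 4.03, 4.11, 4.43 and 4.38 in the virgin glands (-7.42 ± 0.36 SE, 171-fold, adjusted p = 1.88e-16). Rusc1, an adaptor of nerve growth factor signaling, lay between -3.84 and -1.24 (median -2.83) in the 23 tumors and between 3.74 and 4.18 in the 5 virgin glands (109-fold lower, adjusted p = 3.14e-18). Shox2, a homeobox factor of limb and heart, lay between -3.12 and -0.56 (median -1.58) in the 23 tumors and between 2.99 and 4.76 in the 5 virgin glands (53.2-fold lower, adjusted p = 1.37e-15). In the 3 fat samples the clones of these 3 genes averaged 4.99, 4.83 and 6.06, beside 5.90 for Adipoq and 5.12 for Fabp4. The clones of Nfatc2, Rusc1 and Shox2, like all clones here, are named by the platform annotation alone. Whether they measure the genes named was not tested. Atraid, a membrane protein induced by retinoic acid that RefSeq places over Cad and Slc5a6, was 88.3-fold lower and averaged 3.70 in fat. Ahnak2, a very large scaffold protein, stood apart from these, at -1.75 to -1.63 in fat. It lay between -5.00 and 1.00 (median -1.88) in the 23 tumors, against 4.35, 3.49, 4.48, 3.63 and 4.31 in the virgin glands and 3.01 to 4.22 in the 7 hyperplastic glands (66.3-fold lower in tumors than in virgin glands, adjusted p = 1.16e-07).

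**Figure D2:**
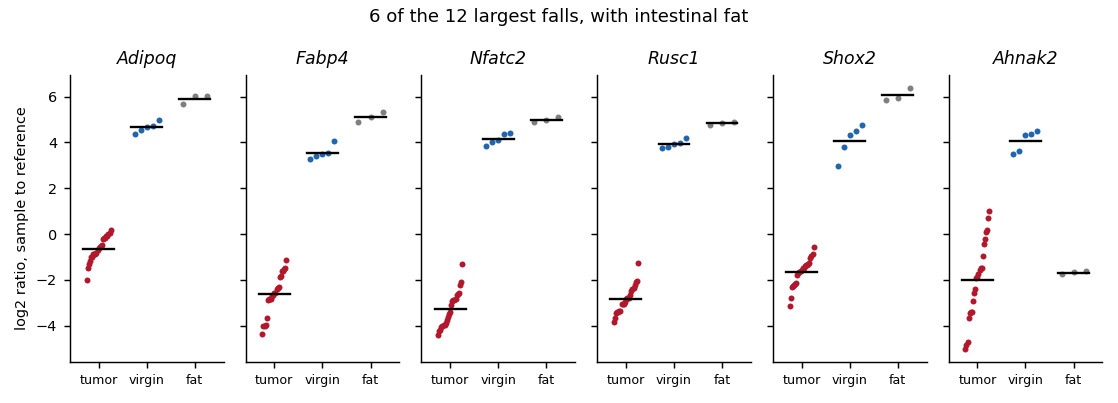
Log2 ratio of sample to reference (vertical axis) on each array for 6 of the 12 largest falls in Wnt-1 tumors (red, n = 23), virgin glands (blue, n = 5) and intestinal fat (grey, n = 3), with black lines at the means. Fat is above the virgin glands on every array for Adipoq, Fabp4, Nfatc2, Rusc1 and Shox2, and at -1.75 to -1.63 for Ahnak2.

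Grouped by function, 28 lists of known genes were read over the same fit, in which 26% of all genes rose and 26.5% fell. Adipocyte genes fell together in the tumors. Of 35 measured, 34 fell and none rose, with a median of -2.77, and for 32 every tumor lay below every virgin gland. The exception was Pck1, the enzyme of glycerol and glucose synthesis, which did not pass the test. The list mean on an array was -1.76 to -0.85 in tumors, 1.28 to 1.87 in virgin glands and 2.01 to 2.30 in fat. Tumor 20 had the highest and tumor 42 the lowest list mean, so no tumor came near the virgin range. Lpl, which frees fatty acids from circulating lipoproteins, lay between -3.06 and -1.84 (median -2.49) in the 23 tumors, against 2.71, 2.47, 2.27, 2.70 and 2.52 in the virgin glands (32.7-fold lower, adjusted p = 4.55e-21). Pparg, the master regulator of fat cell formation, lay between -2.54 and -0.46 (median -0.73) in the 23 tumors and between 1.81 and 2.34 in the 5 virgin glands (8.16-fold lower, adjusted p = 4.23e-11). Its 3 clones gave -4.54, -3.62 and -0.92, all called. Lep, the hormone leptin, was 3.62-fold lower over 2 clones that gave -3.28 and -0.43, and Plin1, which coats lipid droplets, gave -1.08 on a clone that was called and 0.17 on a clone that was not.

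Genes that burn fuel fell with the genes that store it. Of 19 genes of fatty acid oxidation 18 fell and none rose, with a median of -1.46. Decr1, a reductase for unsaturated fatty acids, lay between -1.12 and -0.51 (median -0.84) in the 23 tumors, against 1.54, 1.44, 1.89, 2.12 and 2.17 in the virgin glands (6.48-fold lower, adjusted p = 7.06e-19). Hadhb, the thiolase of the trifunctional protein, was 7.02-fold lower (adjusted p = 2.16e-10), and Ech1, an isomerase of the same pathway, 5.05-fold lower. Of 39 genes of mitochondrial respiration 35 fell and 2 rose, with a median of -1.10. Sdhb, the iron-sulfur subunit of succinate dehydrogenase, lay between -1.08 and -0.46 (median -0.69) in the 23 tumors and between 0.89 and 1.76 in the 5 virgin glands (4.28-fold lower, adjusted p = 3.64e-15). Idh3a, a subunit of the isocitrate dehydrogenase of the citric acid cycle, was 3.54-fold lower, with 4 clones at -1.46, -2.10, -1.84 and -1.88. The 2 that rose, Cox7a2l and Atp5g1, did so by 0.34 and 0.28 on the log2 scale. The call of Cox7a2l was lost without virgin gland 13 or 17 (adjusted p = 0.213 and 0.05) and that of Atp5g1 without virgin gland 17, 28 or 29 (0.0666 to 0.0963). The list mean lay between -0.44 and 0.00 in the 23 tumors, between 0.67 and 1.12 in the 5 virgin glands and between 0.37 and 0.66 in the 3 fat samples, so fat was below the virgin glands. Markers of fat and muscle fell on the same arrays, and their part in the fall of these genes was not tested.

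All 15 measured genes of skeletal muscle fell, with a median of -2.54, and for 14 of them every tumor lay below every virgin gland. The list mean was -1.83 to 0.42 in tumors (median -0.54), 1.91 to 2.83 in virgin glands and -1.82 to -0.30 in fat. Mylpf, the fast myosin light chain, lay between -3.42 and 1.22 (median -0.83) in the 23 tumors, against 4.55, 3.98, 5.20, 3.52 and 4.16 in the virgin glands (38.3-fold lower, adjusted p = 7.42e-09). Myh4, the fast heavy chain, was 35-fold lower (adjusted p = 1.4e-06) and Tnnc2, fast troponin C, 24-fold lower (adjusted p = 4.95e-13). Ckm, muscle creatine kinase, gave -5.23 on a clone that was called and -0.08 on a clone that was not. Mylpf, Myh4 and Pygm, the glycogen phosphorylase of muscle (-4.55), the last chosen after its value was seen, are given as promoter stretches because their E-box, the site that MyoD-type factors bind in other genes, is a sequence feature that the lists did not use. The letters CAGCTG, which read the same on both strands, are in 9 of the 13 measured muscle genes with a RefSeq promoter of 300 bases (69.2%). They are in 18.3% of all 27025 such promoters. Wnt target genes hold them in 6 of 12 promoters (50%), so they are not particular to muscle genes. The shares are 24% for adipocyte, 17.1% for cell cycle, 10.8% for replication and 6.25% for ribosomal protein genes. The stretches are from RefSeq, build GRCm38.p6, each 5′ to 3′ on the strand of its gene, and lie at chr7:127211517-127211602 (+), chr11:67237705-67237790 (+) and chr19:6384360-6384407 (+), with the E-box in capitals.
Mylpf: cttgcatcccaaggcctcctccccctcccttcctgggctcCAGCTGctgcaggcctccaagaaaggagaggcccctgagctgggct
Myh4: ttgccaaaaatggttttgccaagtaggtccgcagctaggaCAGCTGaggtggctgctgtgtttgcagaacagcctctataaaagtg
Pygm: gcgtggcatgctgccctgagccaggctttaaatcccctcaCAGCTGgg

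Markers of vessels and stroma were lower as well. Of 24 endothelial genes 17 fell and 1 rose, with a median of -0.72. Tek, the angiopoietin receptor, lay between -1.59 and -0.92 (median -1.11) in the 23 tumors, against 0.23, 0.45, 0.26, 0.40 and 0.30 in the virgin glands (2.78-fold lower, adjusted p = 8.68e-15). Ramp2, which pairs with the adrenomedullin receptor, was 3.68-fold lower, and Cdh5, the cadherin of endothelial junctions, 1.95-fold lower over 4 clones, of which 3 were called. Cldn5, a claudin of endothelial tight junctions, went the other way. It lay between 0.79 and 1.49 (median 1.10) in the 23 tumors and between -0.38 and 0.30 in the 5 virgin glands (1.98-fold, adjusted p = 8.56e-10).

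Extracellular matrix genes divided. Of 30 measured, 4 rose and 15 fell, with a median of -0.52. Lum, a proteoglycan that spaces collagen fibers, lay between -1.51 and 1.25 (median -0.19) in the 23 tumors, against 2.47, 3.09, 2.64, 2.65 and 2.56 in the virgin glands (7.49-fold lower, adjusted p = 6.53e-10). Col3a1, fibrillar collagen III, was 4.45-fold lower and Nid1, nidogen of the basement membrane, 4.14-fold lower. Vcan, the large proteoglycan versican, lay between 1.19 and 3.38 (median 2.49) in the 23 tumors, against 0.32, 0.21, -0.51, 0.27 and -0.20 in the virgin glands, and rose 5.37-fold (adjusted p = 1.14e-09) with 2 clones at 2.17 and 2.68. Tnc, tenascin C, was 2.85-fold higher (adjusted p = 0.00324), with 22 of 23 tumors above every virgin gland. Col1a1 spread over -6.70 to 2.59 in tumors and did not pass the test (0.45 ± 0.81 SE, adjusted p = 0.667). Tumor 20 had the highest list mean of the tumors for matrix, fat and muscle genes.

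Of 30 lymphocyte genes 3 rose, 13 fell (beside 26.5% of all genes) and 14 did not pass the test, with a median of -0.51, and 1 had every tumor below every virgin gland. Cd8a, the coreceptor of cytotoxic T cells, lay between -1.59 and -0.81 (median -1.20) in the 23 tumors, against 0.49, 0.12, 0.35, 0.56 and 0.98 in the virgin glands (3.27-fold lower, adjusted p = 3.23e-13). Other T cell genes did not all go that way. Cd3d was at -0.76 on the log2 scale (adjusted p = 0.0103), but Cd3e did not pass the test (0.05, adjusted p = 0.641). Cd8b1, looked at with its value already known, did not pass either (0.10, adjusted p = 0.689). The 3 that rose were Bcl11b, Gzmb and Ptprc, by 0.64, 0.27 and 0.25 (adjusted p = 0.0099, 0.0372 and 0.0294). The B cell genes Cd79b, Ms4a1 and Ighm were 2.6-fold, 3.33-fold and 3.42-fold lower (adjusted p = 0.000155, 0.0149 and 0.000199), all 3 below the reference RNA in both groups. Of 24 macrophage and granulocyte genes 3 rose and 7 fell (beside 26% and 26.5% of all genes), with a median of -0.05. Cma1, a protease of mast cells, was 7.07-fold lower (adjusted p = 2.1e-06) and every tumor lay below every virgin gland. Adgre1 and Cd68, which define macrophages, averaged 0.76 and 0.12 in tumors and 0.60 and -0.08 in virgin glands and did not pass the test. Ctss and Lgmn, proteases of the lysosome, rose 1.57-fold and 1.6-fold. Among interferon and antigen presentation genes 5 of 35 rose and 11 fell (beside 26% and 26.5% of all genes). B2m, the light chain of class I molecules, was 3.78-fold lower (adjusted p = 7.44e-08) and Cxcl9, a chemokine for T cells, 4.29-fold lower (adjusted p = 9.14e-13).

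**Figure D3:**
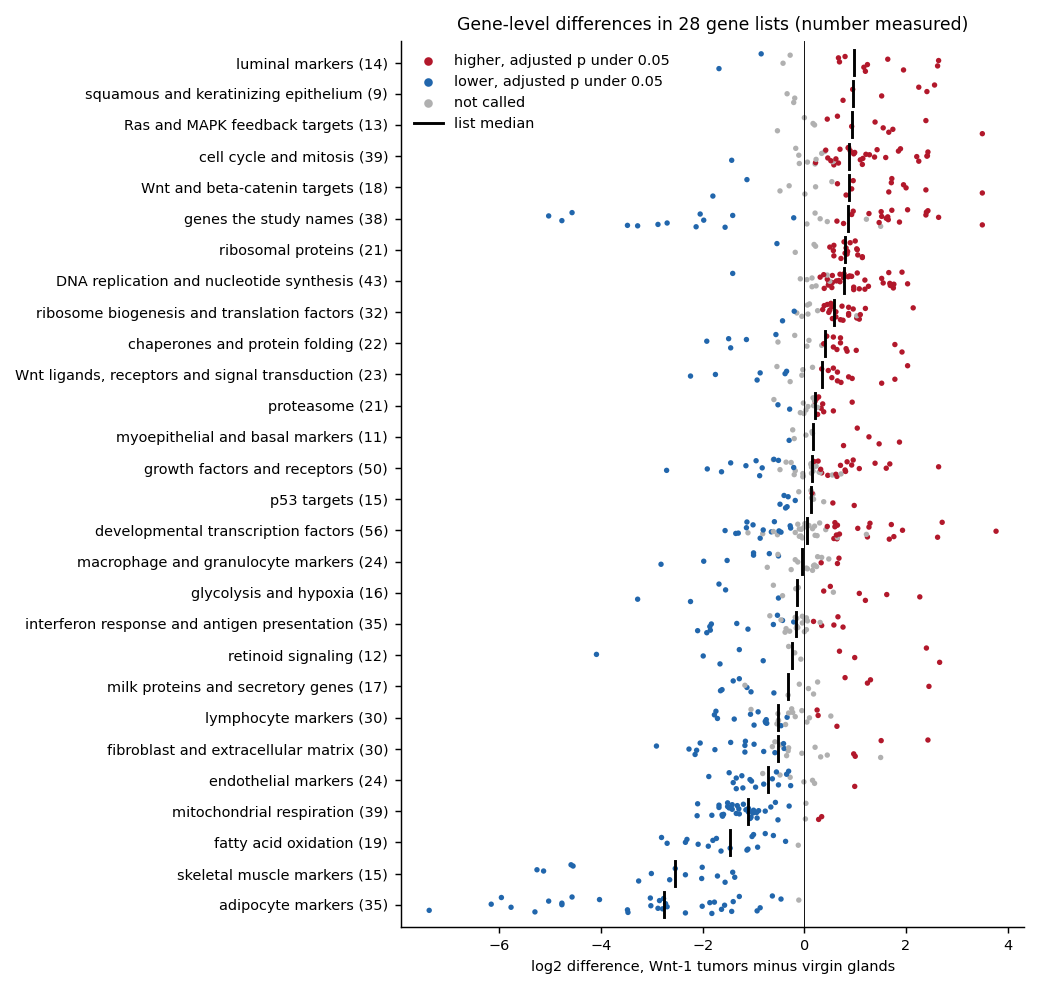
Log2 difference of Wnt-1 tumors (n = 23) minus virgin glands (n = 5) for each measured member (points) of 28 gene lists, in order of the list median (black bars), with the number of members in brackets and colors by call at a limma adjusted p under 0.05. Adipocyte and skeletal muscle genes lie lowest, with medians of -2.77 and -2.54, while the highest list medians stay under 1.

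Genes of the epithelium were higher in the tumors. Of 14 luminal genes 10 rose and 2 fell, with a median of 0.98. Cdh1, the E-cadherin of epithelial junctions, lay between 0.73 and 2.48 (median 1.71) in the 23 tumors, against -0.74, 0.04, -0.17, -0.24 and 0.01 in the virgin glands (3.87-fold, adjusted p = 1.4e-11). Ehf, an Ets factor of epithelia, lay between 1.01 and 2.24 (median 1.52) in the 23 tumors and between -1.73 and -0.50 in the 5 virgin glands (6.13-fold, adjusted p = 7.11e-13), and the keratin Krt19 was 3.11-fold higher (adjusted p = 1.73e-07). Not all luminal genes did so. Cldn4, a claudin of tight junctions, lay between -0.76 and -0.17 (median -0.52) in the 23 tumors, against 0.83, 0.93, 1.29, 1.53 and 1.24 in the virgin glands (3.2-fold lower, adjusted p = 5.36e-15), and Tspan8, a tetraspanin of luminal cells, was 1.8-fold lower (adjusted p = 0.00495, and 0.13 with all groups in 1 fit). Esr1, the estrogen receptor, averaged -0.35 in tumors and 0.06 in virgin glands and did not pass the test (adjusted p = 0.124), with clones at -0.88 (adjusted p = 0.0444) and 0.05 (0.856).

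Of 11 myoepithelial and basal genes 5 rose and 1 fell, with a median of 0.16. Cnn2, a calponin, lay between 0.50 and 1.25 (median 0.83) in the 23 tumors, against -1.12, -0.87, -0.91, -1.02 and -1.02 in the virgin glands (3.65-fold, adjusted p = 1.76e-16). Cnn1, the calponin of contractile cells, was 2.76-fold higher, and with the repeated value of tumor 79 set missing 2.9-fold higher with 22 of 22 tumors above every virgin gland. Itga6, the integrin that holds basal cells to the basement membrane, was 2.42-fold higher with all 23 above. Krt14, the keratin that defines the layer, averaged -0.10 in tumors and -0.13 in virgin glands (adjusted p = 0.829), and Myh11, smooth muscle myosin, 0.40 in tumors and 0.24 in virgin glands (adjusted p = 0.591). Of 9 genes of squamous and keratinizing epithelium 6 rose and none fell, with a median of 0.95. Trim29, of basal and squamous cells, lay between 1.58 and 3.44 (median 2.63) in the 23 tumors, against -0.15, 0.15, 0.26, 0.23 and 0.10 in the virgin glands (5.91-fold, adjusted p = 1.35e-10), S100a14 rose 5.3-fold, and Krt6a, the keratin of hair follicle and wounded skin, lay between 0.58 and 4.66 (median 2.25) in the 23 tumors and between 0.55 and 1.00 in the 5 virgin glands (2.86-fold, adjusted p = 0.0087). The list mean ran between -0.23 in tumor 70 and 1.63 in tumor 42, against -0.39 to -0.26 in virgin glands.

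Milk genes had no common direction. Of 17 measured, 4 rose and 7 fell, with a median of -0.32 that became 0.08 after quantile normalization. The caseins Csn2 and Csn1s2b and the whey protein Wap were 3.06-fold, 3.14-fold and 2.43-fold lower (adjusted p = 0.025, 0.00532 and 0.0467), at ratios far below the reference RNA, which held lactating gland. The call of Csn2 was lost without virgin gland 17 or 27 (adjusted p = 0.055 and 0.0537), and that of Wap without any 1 of the 5 (0.0629 to 0.109). Lcn2, a siderophore-binding protein of stressed epithelium, lay between -0.14 and 2.49 (median 1.25) in the 23 tumors, against -2.06, -0.80, -1.13, -1.47 and -1.19 in the virgin glands (5.46-fold, adjusted p = 1.04e-07), and Mfge8, a milk fat globule protein, was 2.37-fold higher (adjusted p = 6.03e-12).

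The Wnt pathway was read by role. Of 23 ligands, receptors and transducers 12 rose and 6 fell, with a median of 0.34. Among ligands, Wnt5b, a ligand mostly of the noncanonical branch, lay between 1.74 and 3.65 (median 2.55) in the 23 tumors, against 0.24, 1.04, 0.69, 0.57 and 0.20 in the virgin glands (4.07-fold, adjusted p = 3.53e-08). Wnt5a, its close relative, lay between 1.38 and 6.82 (median 2.46) in 22 tumors, against 0.84, 0.78, 0.98, 1.12 and 1.11 in the virgin glands, with tumor 79 at the repeated value of its array. All 22 were above every virgin gland. Its rise of 3.28-fold passed at an adjusted p of 0.0312, and the rise was 3.64-fold (adjusted p = 0.0102) with the repeated value set missing. With it left in, the call was lost without any 1 of the virgin glands (0.0529 to 0.0645). Among receptors, Fzd4 and Fzd6 were lower in every tumor than in any virgin gland. Fzd4, also the receptor of norrin in vessels, lay between -4.10 and -0.87 (median -1.38) in the 23 tumors, against 0.68, 0.64, 0.72, 1.00 and 0.78 in the virgin glands (4.73-fold lower, adjusted p = 2.12e-07), and Fzd6, known for planar cell polarity, was 3.36-fold lower (adjusted p = 1.67e-15). In fat both were high, at 2.33 and 2.08, and the part of fat in their fall was not tested. Other receptors of the list were looked at after their values were seen. Fzd1 and Ryk rose by 0.87 and 0.47 (adjusted p = 1.1e-06 and 0.0029). Fzd8, Fzd9 and Lrp5 were at -0.38, -0.87 and -0.35 (adjusted p = 0.00346, 3.43e-07 and 0.0298). Fzd5 did not pass the test (-0.05, adjusted p = 0.936). Within the destruction complex, Apc was 2.87-fold higher (adjusted p = 2.55e-06). The scaffold Axin1 and the kinases Gsk3b and Csnk1a1 were higher by 0.72, 0.65 and 0.65 on the log2 scale (adjusted p = 1.96e-10, 1.07e-08 and 1.86e-09). Axin1, Gsk3b and Csnk1a1 were chosen after their values were seen. Btrc, of the same list and looked at with them, did not pass the test (-0.28, adjusted p = 0.177). Csnk1e, another casein kinase of the pathway, was 1.91-fold lower (adjusted p = 0.00956). Ctnnb1, β-catenin itself, lay between -1.93 and 1.81 (median 0.90) in the 23 tumors and between -2.86 and 0.57 in the 5 virgin glands and was 3.43-fold higher (adjusted p = 0.00529), with wide spread in both groups.

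Of 18 targets of the pathway 11 rose and 2 fell, with a median of 0.87. Myc, the transcription factor of cell growth, lay between 1.72 and 2.81 (median 2.29) in the 23 tumors, against 0.00, 0.28, -0.15, -0.53 and -0.14 in the virgin glands (5.25-fold, adjusted p = 2.63e-15). Nkd1, an inhibitor that binds Dishevelled, lay between 1.90 and 3.03 (median 2.64) in the 23 tumors, against 0.29, 0.86, 0.60, 0.39 and 0.65 in the virgin glands (3.99-fold, adjusted p = 9.39e-12). Axin2, the feedback inhibitor most used as a readout of the pathway, lay between 0.44 and 2.01 (median 1.37) in the 23 tumors, against 0.46, 0.57, 0.71, 0.68 and 0.06 in the virgin glands, and rose 1.77-fold (adjusted p = 0.0011), with 21 of 23 tumors above every virgin gland. Apcdd1, an inhibitor of the pathway and itself a target, was 3.47-fold lower (adjusted p = 1.42e-08) in every tumor than in any virgin gland, and Twist1, a factor of mesenchyme, 2.18-fold lower over 3 called clones. Fat had 3.02 for Apcdd1 and 1.84 for Twist1. Lef1, a partner of β-catenin, averaged -3.04 in tumors and -2.56 in virgin glands and did not pass the test (adjusted p = 0.297). The list was drawn up with these genes in view and is no independent evidence of its direction.

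**Figure D4:**
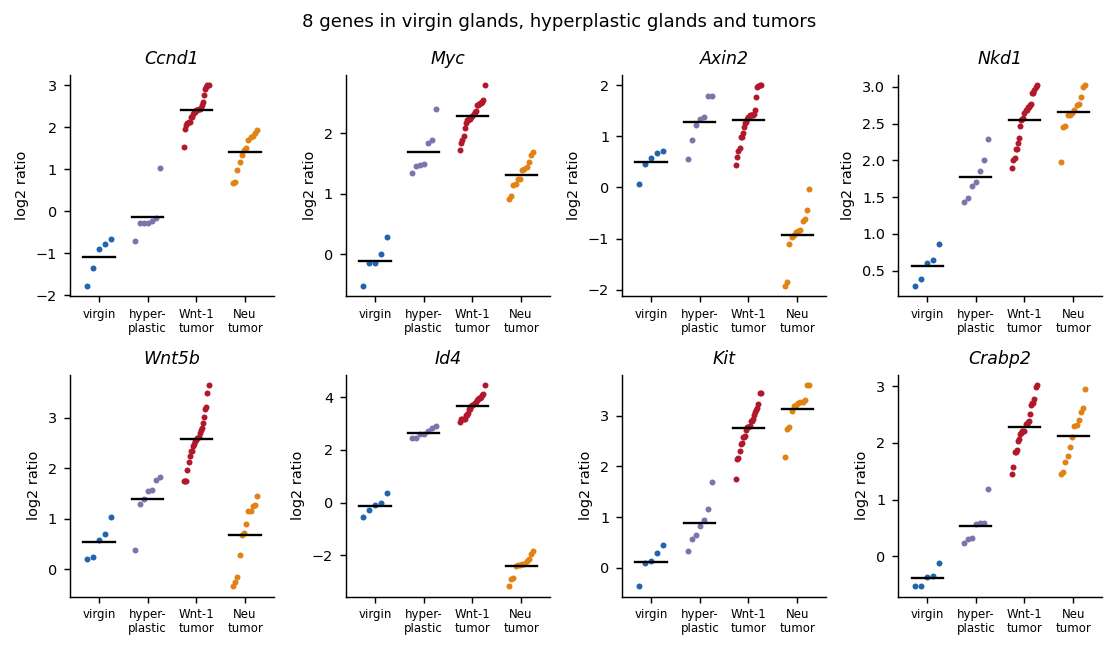
Log2 ratio of sample to reference (vertical axes, each panel on its own scale) on each array for 8 genes in virgin glands (n = 5), hyperplastic glands (n = 7), Wnt-1 tumors (n = 23) and Neu tumors (n = 12), with black lines at the means. Axin2 and Id4 averaged 1.32 and 3.66 in Wnt-1 tumors and -0.92 and -2.41 in Neu tumors.

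Genes of proliferation were higher in the tumors. Of 43 genes of DNA replication and nucleotide synthesis 35 rose and 1 fell, with a median of 0.77, and of 39 genes of the cell cycle and mitosis 29 rose and 1 fell, with a median of 0.87. Mcm5, a subunit of the replicative helicase, lay between -0.77 and 0.82 (median 0.13) in the 23 tumors, against -2.04, -2.30, -2.15, -1.89 and -1.53 in the virgin glands (4.09-fold, adjusted p = 1.21e-09). Uhrf1, which copies DNA methylation after replication, was 3.78-fold higher (adjusted p = 1.32e-11). Hmgb2, a chromatin protein of dividing cells, lay between -0.44 and 0.79 (median 0.24) in the 23 tumors, against -1.97, -1.67, -2.43, -2.38 and -2.28 in the virgin glands (5.31-fold, adjusted p = 4.67e-13). Nek2, a kinase of the centrosome, and Kif20a, a kinesin of cytokinesis, were 5.38-fold and 5.36-fold higher, with 22 and 21 of 23 tumors above every virgin gland (21 of 22 for Nek2, at 5.48-fold, with the repeated value of tumor 79 set missing). The 2 that fell were Timeless, a protein of the replication fork (2.65-fold, adjusted p = 9.28e-14), and Cdkn2c, which inhibits the kinases paired with cyclin D (2.7-fold, adjusted p = 1.13e-10). For both, every tumor lay below every virgin gland, and fat had 1.20 and 1.98. The cell cycle list mean was highest in tumor 36 (0.65) and lowest in tumor 71 (-0.34), against -0.85 to -0.55 in virgin glands, so every tumor was above every virgin gland.

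Promoters of the 2 lists were searched for letters that the lists did not use. For E2F in the replication list and the homology region in the cell cycle list, 3 members that hold the motif before their start are shown. They had the largest rise among such members, with the promoters of a single chromosome left out of the choice. The E2F letters TTTGGCGC, TTTCCCGC, TTTGCCGC or TTTCGCGC, on either strand, are in 11 of 37 replication promoters (29.7%), 5 of 35 cell cycle promoters (14.3%) and 2.6% of all. The cell cycle homology region, TTTGAA on either strand, is in 17 of 35 cell cycle promoters (48.6%), 3 of 37 replication promoters (8.11%) and 20.2% of all. CCAAT on either strand is in 65.7% of cell cycle promoters, 56.8% of replication promoters and 41.1% of all. A match describes these 300 bases and shows no binding. The E2F stretches, with the letters in capitals, are from RefSeq GRCm38.p6, on the strand of each gene, at chr8:75109320-75109407 (+), chr17:56304088-56304175 (+) and chr1:128359706-128359792 (-). In Mcm5 a pair of matches on opposite strands overlap. Mcm6, another helicase subunit with a log2 difference of 1.68, was chosen for its motif after the values were seen.
Mcm5: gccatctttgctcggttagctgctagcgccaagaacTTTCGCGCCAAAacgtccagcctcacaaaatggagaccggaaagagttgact
Uhrf1: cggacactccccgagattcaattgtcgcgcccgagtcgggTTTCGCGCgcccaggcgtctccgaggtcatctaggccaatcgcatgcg
Mcm6: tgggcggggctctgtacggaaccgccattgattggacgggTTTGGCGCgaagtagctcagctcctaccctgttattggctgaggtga

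The stretches with the cell cycle homology region in capitals, of the same source, lie at chr8:57511773-57511842 (+), chr10:69352913-69352967 (-) and chr3:27153947-27154032 (-). Cdk1, the kinase of mitosis (2.25), and Ect2, which is needed for cytokinesis (2.21), were also chosen for the motif after the values were seen.
Hmgb2: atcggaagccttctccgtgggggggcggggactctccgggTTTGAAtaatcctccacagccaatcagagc
Cdk1: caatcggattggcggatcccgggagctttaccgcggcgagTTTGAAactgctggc
Ect2: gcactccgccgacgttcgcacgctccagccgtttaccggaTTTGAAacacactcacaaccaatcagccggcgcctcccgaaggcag

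The letters CTTTGAT and CTTTGAA, which Tcf and Lef factors bind, were searched on both strands in the same way, and 1 of 12 promoters of Wnt target genes held them (8.33%), beside 9.88% of all, within 300 bases.

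Genes that make protein rose too. Of 21 ribosomal proteins 17 rose and 1 fell, with a median of 0.80. Rpl17 and Rpl13a, proteins of the large subunit, rose 2.2-fold each, with every tumor above every virgin gland (adjusted p = 1.72e-10 and 2.65e-10), while Rps25, of the small subunit, was 1.46-fold lower (adjusted p = 4.22e-05). Of 32 genes of ribosome biogenesis and translation 23 rose and 2 fell, with a median of 0.58. Nop58, of the particle that methylates ribosomal RNA, lay between 1.44 and 2.75 (median 2.10) in the 23 tumors, against 0.02, 0.34, -0.07, -0.36 and -0.26 in the virgin glands (4.41-fold, adjusted p = 7.79e-12), and its partner Nop56 was 2.3-fold higher over 2 called clones. Chaperones divided, with 12 of 22 higher, among them Calr, the calcium-binding chaperone of the endoplasmic reticulum (3.78-fold), and Fkbp4, a partner of Hsp90 (3.43-fold), and 5 lower, among them the small heat shock proteins of muscle Hspb6 (3.79-fold) and Cryab (2.73-fold). Of 21 proteasome genes 9 rose and 2 fell, by at most 1.92-fold, in Psmd3.

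Growth factors and their receptors changed in both directions. Of 50 growth factors and receptors 18 rose and 11 fell (beside 26% and 26.5% of all genes), with a median of 0.16. Igf1, the growth factor made by stroma and fat, lay between -4.34 and -1.69 (median -3.19) in the 23 tumors, against -0.64, -0.59, -0.06, -0.24 and -0.38 in the virgin glands (6.56-fold lower, adjusted p = 6.9e-09). Ghr, the growth hormone receptor, was 3.1-fold lower and Igfbp3, which binds Igf1 in serum, 3.76-fold lower. Pdgfa, the ligand, rose 3.19-fold (adjusted p = 4.33e-10) with all 23 tumors above every virgin gland, while Pdgfra, its receptor on fibroblasts, was 2.73-fold lower (adjusted p = 3.35e-06) with all 23 below. The 4 clones of Pdgfra gave -2.01, -0.47, -2.13 and -1.18, of which the clone at -0.47 did not pass the test. Of 13 genes listed as targets of Ras and MAPK 9 rose and none fell, with a median of 0.93. They were led by Ccnd1 and Myc, which are Wnt targets as well, and by Emp1, a membrane protein (3.35-fold). Of the feedback inhibitors in the list, chosen after their values were seen, Spry1 rose by 0.65 on the log2 scale (adjusted p = 0.00193). Dusp4 and Spred1 did not pass the test (adjusted p = 0.23 and 0.994). The study found Ha-Ras mutations in some of these tumors and only wild-type Ha-Ras in others. The tumors were not divided by Ha-Ras status here.

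Genes of sugar breakdown and of the hypoxia response had 6 members higher and 5 lower of 16, with a median of -0.15. Over all genes 26% were higher and 26.5% lower. Bnip3, a mitophagy receptor induced by low oxygen, was 9.69-fold lower and Aldoa, the aldolase of muscle, 4.73-fold lower, while Car12, a membrane carbonic anhydrase, was 4.82-fold higher (adjusted p = 3.65e-09, 2.72e-08 and 2.15e-07). Of 12 retinoid genes 4 rose and 5 fell, with a median of -0.25. Stra6, the retinol uptake receptor, lay between -0.66 and 4.27 (median 2.22) in the 23 tumors and between -0.39 and 0.25 in the 5 virgin glands (5.26-fold, adjusted p = 0.00202), and Rarres2, the adipokine chemerin, was 17-fold lower (adjusted p = 1.38e-11). Of 15 p53 targets 3 rose and 6 fell, although the median was 0.13, and Cdkn1a, the inhibitor p21, rose 1.97-fold with all 23 tumors above every virgin gland (adjusted p = 0.000126) and the falls were under 1.5-fold. Of 56 developmental transcription factors 19 rose and 14 fell (beside 26% and 26.5% of all genes), with a median of 0.06. Hoxa5 and Hoxa7, homeobox factors of position, were 2.55-fold and 2.47-fold lower. Of 38 genes that the study names 19 rose and 13 fell, and since they were named from these samples their count is no independent evidence.

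The hyperplastic glands divided the distance at different points for different groups of genes. Hyperplastic against virgin glands, 744 genes (9.58%) were higher and 1107 (14.3%) lower, and tumors against hyperplastic glands, 1704 (21.9%) were higher and 1723 (22.2%) lower. The 2 comparisons share the hyperplastic glands and each shares a group with the whole distance, so their values are only set side by side. The first rests on 7 and 5 arrays and the second on 23 and 7, so the counts of called genes also depend on these numbers. Median differences over all genes were -0.02 and -0.03. Adipocyte genes moved in both, with 31 of 35 lower in hyperplastic than in virgin glands (median -1.29) and 32 lower in tumors than in hyperplastic glands (median -1.34). Fatty acid oxidation moved mostly in the first, at medians of -0.98 and -0.49. Skeletal muscle moved mostly in the second, with 2 of 15 genes lower in hyperplastic than in virgin glands (median -0.21) and 15 of 15 lower in tumors than in hyperplastic glands (median -2.43). Ribosomal proteins were the reverse, with 17 of 21 higher in hyperplastic than in virgin glands (median 0.73) and 1 higher and 3 lower in tumors than in hyperplastic glands (median 0.00). Replication genes were higher in 14 of 43 in the first (median 0.25) and 30 of 43 in the second (median 0.51). Lymphocyte genes fell in the second, in 14 of 30 (median -0.58), against 2 of 30 in the first (median 0.11).

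In single genes the first step is hyperplastic against virgin glands and the second is tumors against hyperplastic glands. Ccnd1 averaged -1.09 ± 0.47 in virgin glands, -0.13 ± 0.54 in hyperplastic glands and 2.40 ± 0.36 in tumors (SD), and both steps passed the test (adjusted p = 0.0178 and 3.34e-13). Myc averaged -0.11 in virgin glands, 1.70 in hyperplastic glands and 2.29 in tumors, so most of its rise was already in the hyperplastic glands (adjusted p = 7.21e-05 and 0.000232). Axin2 averaged 0.50 in virgin glands, 1.28 in hyperplastic glands and 1.32 in tumors, with the first step called (adjusted p = 0.0125) and the second not (adjusted p = 0.885). Id4 averaged -0.12 in virgin glands, 2.65 in hyperplastic glands and 3.66 in tumors, with both steps called (adjusted p = 2.46e-07 and 1.16e-06). Kit averaged 0.12 in virgin glands, 0.88 in hyperplastic glands and 2.75 in tumors, so its larger step was the second (adjusted p = 0.0178 and 6.6e-10). Krt6a averaged 0.77 in virgin glands, 2.38 in hyperplastic glands and 2.29 in tumors, with the first step called (adjusted p = 0.00157) and the second not (adjusted p = 0.879).

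**Figure D5:**
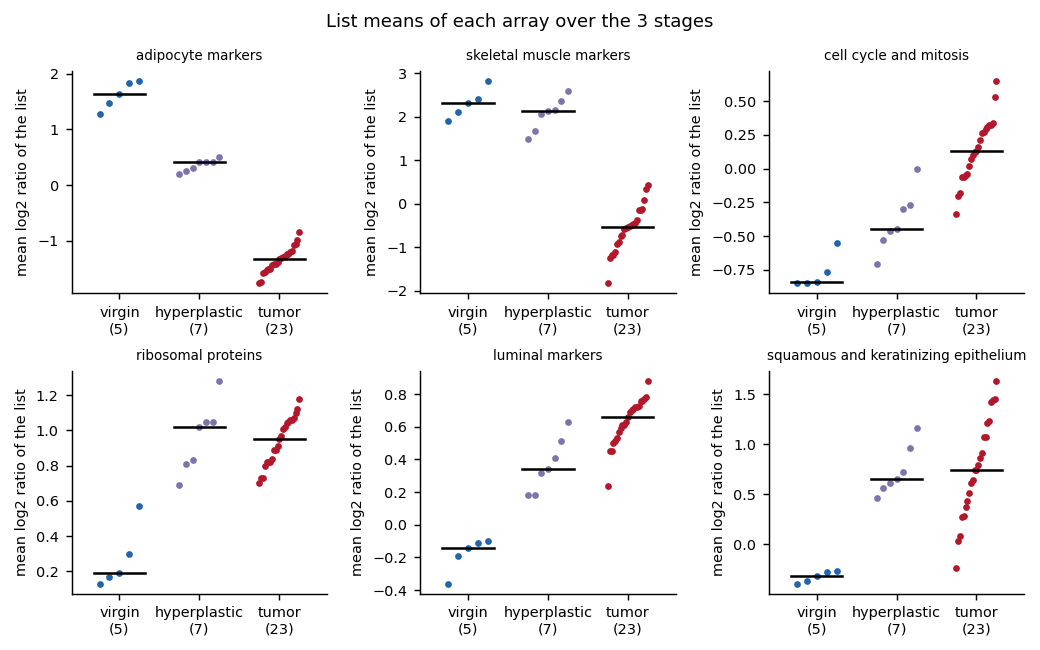
Mean log2 ratio of the measured members of 6 gene lists (vertical axes, each panel on its own scale) on each array, in virgin glands (n = 5), hyperplastic glands (n = 7) and Wnt-1 tumors (n = 23), with black lines at the group medians. Adipocyte genes step down at both stages, muscle genes between hyperplastic glands and tumors, and ribosomal protein genes step up between virgin and hyperplastic glands.

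Wnt-1 tumors were also compared directly with Neu tumors, a fit in which the virgin glands do not enter. Wnt-1 against Neu tumors, 1767 genes (22.8%) were higher and 1788 (23.0%) lower, with a median of -0.03 over all genes. Age and part of the strain background differ between the 2 kinds of tumor as well. Adipocyte genes were higher in 6 and lower in 12 of 35 (median -0.02), and muscle genes higher in 1 and lower in 4 of 15. Wnt targets were higher in 12 of 18 and lower in none (median 0.73), matrix genes higher in 21 of 30 and lower in 1 (median 0.89), myoepithelial and basal genes higher in 8 of 11 (median 1.09), squamous genes higher in 7 of 9 (median 2.63) and glycolysis and hypoxia genes lower in 11 of 16 (median -0.58). Id4 averaged 3.66 ± 0.38 in Wnt-1 tumors and -2.41 ± 0.40 in Neu tumors (SD), a difference of 6.07 ± 0.13 (SE, adjusted p = 6.9e-29), and the virgin glands lay between the 2 kinds of tumor. Ccnd1 was 1.99-fold and Myc 1.96-fold higher in Wnt-1 than in Neu tumors (adjusted p = 1.37e-07 and 3.42e-11), while Nkd1 averaged 2.56 in Wnt-1 and 2.65 in Neu tumors (adjusted p = 0.501) and Crabp2 2.28 in Wnt-1 and 2.13 in Neu tumors (adjusted p = 0.439). Kit was lower in Wnt-1 than in Neu tumors, at 2.75 in Wnt-1 and 3.13 in Neu tumors (adjusted p = 0.0335).

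The tumors varied most, among called genes, at Ces1d, Dpyd, Anks1b, Ahnak2 and Myh4. Over the 22 tumors left once the repeated value of tumor 79 is set missing, Ces1d had an SD of 1.91, with tumors 49 and 42 at -11.29 and -9.97 and the other 20 between -5.88 and -3.31. Dpyd, which degrades pyrimidines, had an SD of 1.91 over the same 22, with tumors 49 and 47 at -9.12 and -9.04, against -0.82, -0.78, -0.91, -0.79 and -0.78 in the virgin glands. It was 8.14-fold lower (adjusted p = 0.00446), and 9.02-fold lower with that value set missing (adjusted p = 0.00207). Tumors 42 and 49 were the arrays of widest spread. Anks1b had an SD of 1.77 and ran between 2.32 in tumor 47 and 8.01 in tumor 64, with tumors 38, 65, 62, 69 and 64 above 7. Ahnak2 ran between -5.00 in tumor 69 and 1.00 in tumor 20, and Myh4 between -5.48 in tumor 50 and 0.67 in tumor 20. Tumors 20, 24, 49 and 36 had the 4 highest values of both genes and the 4 highest muscle list means, at 0.42, 0.34, -0.12 and 0.09. The part of muscle in the values of Ahnak2 was not tested.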

How the data were processed

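The authors hybridized each sample (Cy5) with the common reference (Cy3) on cDNA arrays, scanned them with a GenePix scanner and extracted and normalized the ratios with ArraySuite. The deposited values are log2 ratios of sample to reference, which the authors had normalized within each array, and they were used as deposited. The authors left out clones with an average quality score under 0.5, and this step was not repeated. Arrays of the smaller type were not used here.

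Of 15360 clones, 11860 carried 1 gene symbol in the platform annotation, 705 several and 2795 none, and only clones with 1 symbol were averaged into the 7766 genes. Groups were compared with limma 3.58.1 in R 4.3.3 (lmFit and eBayes on the 2 groups of each comparison), with Benjamini-Hochberg adjustment over all clones or all genes tested and a threshold of 0.05. Tested on simulated arrays of 23 and 5 samples and 15360 clones, of which 66 or 67 were changed at each size, the fit recovered 44.8%, 68.7% and 95.5% of those changed by 1.5-, 2- and 4-fold, with 13 false calls in all. Far fewer clones changed there than were called in the arrays. Precision is limited by the number of virgin glands.

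Members and gene lists were chosen with earlier results of these data known. Named genes are the 12 largest rises and falls among genes with all clones called in 1 direction, the genes that the study names, in each list the 3 largest called rises and falls and the defining markers, and the 5 called genes of largest SD among tumors. Any other gene is said to have been chosen after its values were seen. The alternatives were array centring, quantile normalization, all groups in 1 fit, another eBayes prior and clones with a value on every array. Further ones set extreme ratios or repeated values missing, or left out wide arrays or each virgin gland. A permutation t-test modeled on that of the methods was also run. Promoter sequences are from RefSeq, build GRCm38.p6, matched by symbol. Since the files name no genome build, no coordinates of clones are given.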

Additional observations from a re-analysis of the deposited data

Results flagged for a closer look

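Among 122 of the genes given with values, 244 pairs of a gene and a group were examined in virgin and hyperplastic glands. In 18 pairs 1 array lay far from the others of its group. Chance alone gives about 1 in 20. In virgin glands, Ccnjl was at -1.19 in gland 29 and at -0.72 to -0.54 in the others, Cldn5 at -0.38 in gland 13 and at 0.20 to 0.30, Stra6 at 0.25 in gland 13 and at -0.39 to -0.30, Dcaf12 at -2.29 in gland 17 and at -4.17 to -3.67, and Rpl17 at 1.12 in gland 17 and at 0.37 to 0.57. In hyperplastic glands, Anks1b was at 7.38 in gland 14 and at -0.36 to 1.13 in the others. Gland 14 also had Igfbp3 at 1.15, gland 9 had Ccnd1 at 1.03, Col1a1 at -0.28 and Ctnnb1 at -0.70, and gland 5 had Crabp2 at 1.19, Csn2 at -1.70 and Hmgb2 at 0.59. Gland 7 had Ccnjl at -0.60, Hoxa5 at 1.13 and Wnt5b at 0.38, gland 10 had Cdkn1a at 0.67 and gland 15 had Psmd3 at -1.62.

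For 3 of the genes described here every Wnt-1 tumor lay above every virgin gland and every Neu tumor below. The difference between the 2 kinds of tumor passed its own limma test. The described genes were picked largely for their differences, and the share of all genes with this pattern is not given. The difference was 6.07 on the log2 scale for Id4 (adjusted p = 6.9e-29), 6.04 for Krt19 (adjusted p = 1.58e-21) and 3.54 for Trim29 (adjusted p = 4.24e-20).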

How the results depend on the processing

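Called clones numbered 7582, and between 6800 (all groups in 1 fit) and 8289 (quantile normalization) under the limma alternatives. Without 1 virgin gland in turn they numbered 6850 to 7051. The permutation t-test of the methods called 4932, all of them among the 7582. Milk genes that fell numbered 7, and 4 after quantile normalization or 4 to 6 without 1 virgin gland. The p53 targets that fell numbered 6, and 3 to 5 without 1 virgin gland. After quantile normalization Irf8, whose 4 clones gave 2.53, -0.45, -2.84 and -0.10, was at 0 and Lef1 at 0.26. Without 1 virgin gland, Cd81 ran between -0.19 and 0.19, Krt14 between -0.06 and 0.09 and Cd3e between -0.01 and 0.09. Lef1, Cd81, Krt14 and Cd3e did not pass the test. The cause was not tested. Of 179 called named genes, 162 kept the call under every alternative run on them. With the repeated values set missing, all 194 named genes stayed on their side of the threshold. No paired analysis was possible because the tumors and the virgin glands share no replicate numbers.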
